A study of Mus musculus with 3 samples.

Results

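Sheared pre-osteoclasts carrying an Ift88 short hairpin RNA (shRNA) were compared with static pre-osteoclasts carrying a control shRNA, so that shear and knockdown both differed between the sides. The deposited table held 24067 genes in 3 mRNA-seq libraries, of which 2 form this comparison. Genes were kept when their mean FPKM (fragments per kilobase of transcript, scaled by the authors to each library's mapped fragments) over the 3 libraries was at least 1, which left 10358 genes. Each kept gene was given the log2 of (FPKM + 1) in the sheared Ift88 shRNA library over (FPKM + 1) in the static control library.

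The cells were primary pre-osteoclasts from bone of wild-type (WT) mice, grown with MCSF and RANKL for 2 days to induce osteoclast differentiation. One group was static with control shRNA, one received orbital shear stress (medium swirled over the cells) for 24 hours with control shRNA, and one received the same shear with Ift88 shRNA. A static group with Ift88 shRNA was not analysed here, so what the knockdown does without shear cannot be told apart from what it does under shear. No label used here gives the hairpin sequences, the age of the mice or how many were pooled. Each group had 1 library, so no difference below has a replicate check, no p-value is given, and every statement is about these libraries. Counts of genes past 1.2-fold, 1.5-fold or 2-fold are on the (FPKM + 1) scale. Levels below are in the order static control, sheared control, sheared Ift88 shRNA. Ratios without a named scale are FPKM in the sheared Ift88 shRNA library over FPKM in the static library, with a 95% Clopper-Pearson interval from estimated fragments that covers counting error only.

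As background, RANKL acts through the receptor RANK on cells of the monocyte lineage and, with MCSF, turns on a programme led by the transcription factor NFATc1. The precursors then fuse, secrete acid and release cathepsin K onto bone. Ift88 encodes a subunit of intraflagellar transport complex B, the train of proteins that builds and maintains cilia, which in many cell types act as sensors of fluid flow. Cells build cholesterol through the mevalonate pathway under the control of SREBP2, and export it under the control of the liver X receptors (LXR).

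Ift88 itself (chr14:57424064-57517936, build mm10) was measured at 2.98, 2.71 and 1.197 FPKM. It was the lowest in the library labelled with its shRNA, at a ratio to the static library of 0.401 (0.323 to 0.498), resting on an estimated 300 fragments in the static and 121 in the sheared Ift88 shRNA library. Estimated depth was 34750000, 35300000 and 34850000 fragments, and an FPKM of 1 or more was reached by 10354, 10304 and 10358 genes. Macrophage genes dominated among marker lists (summed levels of 34690.5, 33029.1 and 34319 FPKM), while 6 of 12 lymphoid, 3 of 8 endothelial and 7 of 15 erythroid, mast cell and megakaryocyte markers were at 0. The last list summed to 307, 309 and 315 FPKM, nearly all of it Pf4, a platelet chemokine gene. Of 21 listed resorption genes of osteoclasts 17 passed the expression filter, among them Acp5, Mmp9 and Atp6v0d2 at levels given below. Calcr, the calcitonin receptor of mature osteoclasts, at 0.117, 0.0344 and 0.0259 FPKM, and Car2, the carbonic anhydrase that feeds acid secretion, at 1.14, 0.299 and 0.565, did not pass.

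Differences between the libraries were small for most genes. On the log2 (FPKM + 1) scale the median was -0.000298, 95% of genes lay between -0.33 and 0.34, and 90.7% were within 1.2-fold. Any difference upward was seen in 49.8% of genes and any downward in 50.1%. At least 1.2-fold higher were 496 genes (4.79%) and 464 were at least 1.2-fold lower (4.48%). At 1.5-fold the counts were 35 higher (0.338%) and 42 lower (0.405%), and at 2-fold 9 higher (0.0869%) and 13 lower (0.126%). The genes just inside and just outside 1.5-fold stood at log2 values of 0.585 and 0.566 on the higher side and -0.587 and -0.582 on the lower side. The spread, as a robust SD of the log2 ratios, was 0.137 here against 0.111 for sheared control over static and 0.109 for sheared Ift88 shRNA over sheared control, comparisons that share these same libraries.

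Genes with short or noncoding transcripts held most of the largest differences. Of the 22 genes past 2-fold, 13 had no coding transcript or a longest transcript under 500 bases, although 320 of the 10358 genes did, and 12 were named as small RNAs or their hosts. For short transcripts a few fragments give a large FPKM, and 90 of the 320 genes were known to be under 500 bases. The others of the 320 had no coding transcript. Both kinds were left out of the ranking. The genes ranked below are coding genes with a transcript of at least 500 bases or of unknown length. In that class of 10038 genes, 25 were at least 1.5-fold higher and 29 lower, and 5 and 4 were past 2-fold.

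**Figure D1:**
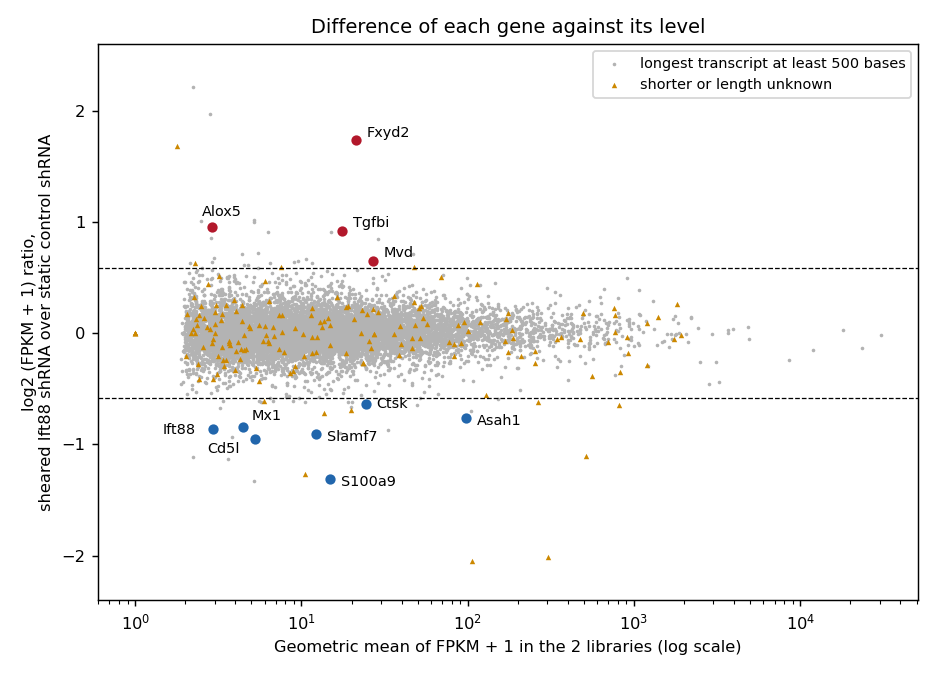
Log2 ratio of (FPKM + 1), sheared Ift88 shRNA over static control, on the y axis against the geometric mean of FPKM + 1 in these libraries on a log x axis, 1 point a gene; dashed lines mark 1.5-fold and triangles are genes shorter than 500 bases or of unknown length. Of 10358 genes 90.7% lie within 1.2-fold, and the named genes stand outside that band on either side; 8 genes lie beyond the y axis and are not drawn.

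Fxyd2 (chr9:45399709-45410278) encodes the gamma regulatory subunit of the sodium pump. Among the ranked coding genes, Fxyd2 was the highest for which no near-identical copy or overlapping gene was found. It stood at 10.7, 9.98 and 37.8 FPKM, so that the static and sheared control libraries were alike and the library with Ift88 shRNA was high. Its ratio over static was 3.55 (2.998 to 4.21) and the ratio of sheared control over static was 0.937 (0.753 to 1.16). Fxyd5, another FXYD regulator, differed far less, at 482, 495 and 591 FPKM. Of 10 sodium pump and FXYD genes 5 passed the filter, 4 of them higher, 2 by at least 1.2-fold, with a median log2 of 0.137. Without the filter the median over the 10 was 0.024.

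Tgfbi (chr13:56609586-56639359), a secreted matrix protein induced by TGF-beta, was at 11.7, 13.3 and 23.0 FPKM, with a ratio of 1.97 (1.82 to 2.12). Olfm1, a secreted olfactomedin-domain glycoprotein, was at 2.64, 2.94 and 6.37 FPKM, with a ratio of 2.41 (2.02 to 2.88). The orphan receptor gene Gpr141 was at 3.24, 3.68 and 5.99 FPKM, with a ratio of 1.85 (1.62 to 2.10). In Tgfbi, Olfm1 and Gpr141 the sheared control library sat near the static one and the library with Ift88 shRNA was high. Ndrg4, a member of the NDRG family, was at 0.7502, 1.197 and 2.52 FPKM, with a ratio of 3.35 (2.56 to 4.47), with the sheared control in between.

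Leukotriene synthesis contributed 2 of the 15 highest genes. Alox5 (chr6:116410071-116461178), the 5-lipoxygenase that begins leukotriene synthesis, was at 1.09, 1.56 and 3.05 FPKM, with a ratio of 2.79 (2.21 to 3.54). Ltc4s (chr11:50236461-50238532), which joins leukotriene A4 to glutathione to make leukotriene C4, was at 3.62, 5.24 and 7.67 FPKM, with a ratio of 2.12 (1.54 to 2.94). Both were lowest in static cells, intermediate in sheared control and highest with Ift88 shRNA. Genes of the same pathway chosen after their values were seen differed less. Alox5ap, the 5-lipoxygenase activating protein, was at 286, 302 and 342 FPKM, with an interval for its ratio of 1.16 to 1.23. Lta4h, which makes leukotriene B4, was at 52.8, 49.996 and 50.9 FPKM, with an interval that includes equal levels (0.919 to 1.01).

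Slamf7 (chr1:171632403-171653037), a SLAM family receptor of leukocytes, was at 15.8, 14.8 and 7.97 FPKM, with a ratio of 0.505 (0.468 to 0.544). Asah1 (chr8:41340646-41397644), the acid ceramidase of lysosomes, was at 126, 129.9 and 74.1 FPKM, with a ratio of 0.586 (0.569 to 0.604). Its locus in the annotation overlaps that of Frg1, which was near equal at 31.6, 30.9 and 30.9 FPKM. In both Slamf7 and Asah1 the static and sheared control levels were close and the library with Ift88 shRNA was low. Tma7 had the same order at 132, 138 and 80.9 FPKM, with a ratio of 0.613 (0.580 to 0.647).

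Cd5l (chr3:87357881-87371074), a secreted protein of tissue macrophages, was at 6.26, 4.37 and 2.76 FPKM, with a ratio of 0.440 (0.366 to 0.525). Cbr2 (chr11:120729485-120732025), a carbonyl reductase, was at 43.7, 30.3 and 23.5 FPKM, with a ratio of 0.537 (0.490 to 0.586). Cd5l and Cbr2 were lower in each sheared library than in static cells and lowest with Ift88 shRNA. The 17 measured macrophage and monocyte markers had 12 lower and 5 higher, 4 lower by at least 1.2-fold and 3 by at least 1.5-fold, with a median log2 of -0.089. Besides Cd5l these were Siglec1, a sialic acid receptor, at 10.00, 7.88 and 6.21 FPKM, with a ratio of 0.621 (0.580 to 0.665), and the Fc receptor gene Fcgr1 at 5.86, 4.52 and 3.49 FPKM, with a ratio of 0.596 (0.513 to 0.690). Cd68, a general macrophage marker chosen after its values were seen, was at 1787, 1799 and 1783 FPKM, so the whole marker list did not share the difference. In bulk samples, fewer cells of a type and less RNA per cell cannot be told apart.

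S100a9 (chr3:90692630-90695721), a calcium-binding protein most abundant in neutrophils, was at 22.3, 6.66 and 8.38 FPKM, with a ratio of 0.376 (0.293 to 0.475). Ngp, a neutrophil granule protein, was at 4.36, 1.01 and 1.45 FPKM, with a ratio of 0.333 (0.238 to 0.458). S100a8, whose transcript is under 500 bases, was at 24.2, 12.6 and 14.6 FPKM and the chitinase-like gene Chil3 at 4.32, 1.46 and 1.78. In these 4 genes the static library was high and the sheared libraries, with either shRNA, were low. All 5 neutrophil markers that passed the filter, of 14 in the table, were lower, 4 by at least 1.2-fold, with a median log2 of -0.69. Over all 14, without the filter, it was -0.26. Side by side, the median of the 5 was -0.89 for sheared control over static and 0.20 for sheared Ift88 shRNA over sheared control. The summed level of the 14 markers was 79.5, 44.2 and 46.1 FPKM, and Retnlg was at 0. The part of neutrophil transcripts in the other differences was not tested.

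Some of the largest ratios belonged to genes whose fragments Cufflinks had to divide, and these are uncertain. H2-Q6 stood at 0.0406, 1.86 and 3.83 FPKM, but with its copy H2-Q7, 95.1% identical, the sums were 15.3, 17.8 and 17.4. Akr1b3 stood at 35.6, 46.5 and 58.9 FPKM, whereas the sum with Gm6644, 99.7% identical, was 96.8, 99.9 and 97.7. Eif3j2 stood at 2.28, 11.1 and 0.516 FPKM and the sum with Eif3j1, 99.4% identical, was 21.1, 19.3 and 17.2. In each of these 3 pairs the sum differed far less between libraries than the single copy did. Rsc1a1 lies inside Ddi2, with sums of 28.9, 27.8 and 27.5 FPKM, and Hist2h3c2 with Hist2h3c1 summed to 4.37, 5.01 and 4.64. Pet117 overlaps Csrp2bp, Cfb shares sequence with a read-through transcript, and Rpl26, Rpl30 and Cdc5l have 6, 12 and 10 near copies. Their ratios are not used further.

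**Figure D2:**
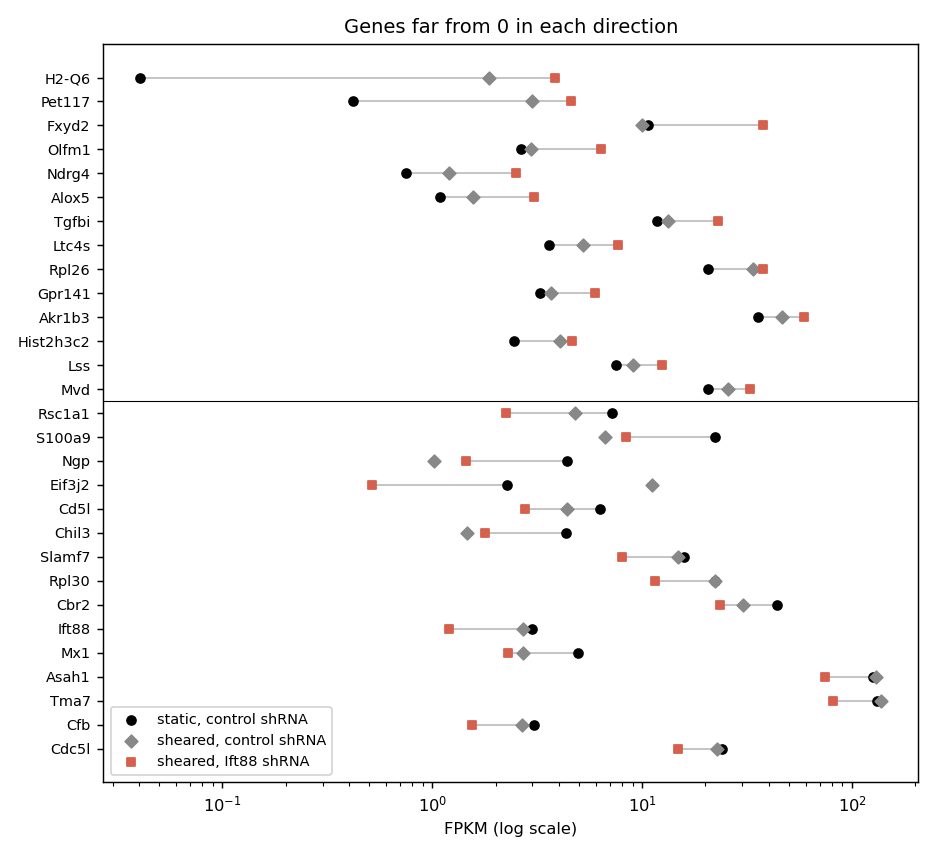
FPKM on a log axis for coding genes among the 15 furthest in each direction, 1 marker per library (static control, sheared control, sheared Ift88 shRNA). Fxyd2, Tgfbi, Slamf7 and Asah1 have the static and sheared control markers close together, whereas S100a9, Ngp and Chil3 have both sheared markers together below the static one.

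Cholesterol synthesis genes were higher as a group. The mevalonate branch makes isoprenoid units and the squalene branch closes and trims the sterol ring. Of 27 measured members, from 28 listed, 24 were higher and 3 lower, 19 were at least 1.2-fold higher and none at least 1.2-fold lower, with a median log2 of 0.36. All genes had a median near 0 and 4.79% past 1.2-fold upward. The same median was 0.16 for sheared control over static and 0.21 for sheared Ift88 shRNA over sheared control. The mevalonate branch had 9 of 10 members higher (median 0.49), the squalene branch 11 of 11 (median 0.33), and the genes of control and uptake 4 of 6 (median 0.25).

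In the mevalonate branch, Hmgcs1, which makes HMG-CoA, was at 26.0, 28.0 and 36.6 FPKM, with a ratio of 1.41 (1.34 to 1.4795). Mvd, the decarboxylase of the branch, was at 20.5, 25.7 and 32.7 FPKM, with a ratio of 1.60 (1.484 to 1.72). Both were lowest in the static library, intermediate in the sheared control and highest with Ift88 shRNA, with the intervals of the ratios above 1. Ggps1, chosen after its values were seen as the member of this branch that was lower, makes the isoprenoid used for protein prenylation and was at 3.10, 2.87 and 2.70 FPKM.

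In the squalene branch, Fdft1 (squalene synthase) was at 8.31, 11.4 and 13.4 FPKM, with a ratio of 1.61 (1.49 to 1.74), and Sqle (squalene epoxidase) at 24.4, 28.2 and 35.3, a ratio of 1.45 (1.37 to 1.53). Lss, which closes the sterol ring and overlaps 4930483K19Rik in the annotation, was at 7.49, 9.09 and 12.5 FPKM, with a ratio of 1.67 (1.55 to 1.79). In these 3 genes the sheared control lay between the other libraries. Of the control genes, Srebf2, which encodes SREBP2, was at 32.7, 38.2 and 42.7 FPKM, with a ratio of 1.31 (1.26 to 1.36).

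The promoters of 3 of these genes are shown because they carry the CCAAT box, the binding site of NF-Y, a factor known to act with SREBP2 on sterol genes. They are the 250 bases before a start listed for the gene in RefSeq (GRCm38.p6), on the gene's own strand. They lie at chr8:122443423-122443672 (minus strand) for Mvd, chr10:76531355-76531604 (plus) for Lss and chr13:119690101-119690350 (plus) for Hmgcs1. The first base of the Lss gene in RefSeq is 76531565, so the last bases of its stretch lie inside the gene. Capitals mark CCAAT or its reverse complement.
Mvd: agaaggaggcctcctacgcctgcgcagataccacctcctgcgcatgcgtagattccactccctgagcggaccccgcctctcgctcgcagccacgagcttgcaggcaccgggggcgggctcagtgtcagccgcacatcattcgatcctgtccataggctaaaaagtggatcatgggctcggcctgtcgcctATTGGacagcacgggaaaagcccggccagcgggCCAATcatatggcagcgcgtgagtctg
Lss: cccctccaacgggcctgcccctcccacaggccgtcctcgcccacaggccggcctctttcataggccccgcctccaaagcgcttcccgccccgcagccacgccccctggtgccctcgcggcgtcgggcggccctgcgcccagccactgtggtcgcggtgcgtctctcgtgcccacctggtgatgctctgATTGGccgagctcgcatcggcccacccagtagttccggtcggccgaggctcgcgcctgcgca
Hmgcs1: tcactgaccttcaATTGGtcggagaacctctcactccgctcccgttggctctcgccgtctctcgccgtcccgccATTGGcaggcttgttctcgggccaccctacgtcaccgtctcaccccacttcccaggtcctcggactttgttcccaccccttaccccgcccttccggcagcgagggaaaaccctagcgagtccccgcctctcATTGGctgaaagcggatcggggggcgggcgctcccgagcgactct

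CCAAT, read on both strands, was present in 18 of 20 sterol genes with a promoter in the table (90.0%), in 40.7% of the 8393 measured genes with one and in 33.8% of all 32851 promoters. In the list the median log2 was 0.32 for genes with the box. Those without it were Scap (0.18) and Acat2 (0.50), too few to say whether its presence ordered the ratios. The sterol element TCACNCCAC was found in 1 of 20 sterol genes and in 1.24% of the measured genes. A match describes these letters only.

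Genes that export or store lipid had the opposite direction. Of 9 measured LXR receptors and targets 8 were lower, 5 by at least 1.2-fold, and none was at least 1.2-fold higher, with a median log2 of -0.39. For sheared control over static that median was -0.071, and for sheared Ift88 shRNA over sheared control -0.20. Abca1 (chr4:53030789-53159988), which loads cholesterol onto apolipoprotein A-I, was at 14.5, 10.5 and 9.45 FPKM, with a ratio of 0.651 (0.623 to 0.680). Abcg1, which exports cholesterol to HDL, was at 20.4, 19.1 and 14.1 FPKM, with a ratio of 0.691 (0.658 to 0.726). Abca1 was lower in both sheared libraries than in static cells, whereas Abcg1 was low chiefly in the library with Ift88 shRNA.

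Nr1h3, which encodes LXR-alpha, was at 21.6, 18.1 and 15.2 FPKM, and Apoe, the apolipoprotein secreted by macrophages, at 3780.2, 3599 and 2788. PPARG and its targets had 5 of 6 lower, 3 by at least 1.2-fold, with a median log2 of -0.32. Fabp4, a fatty acid carrier, was at 245, 226 and 172 FPKM, with a ratio of 0.702 (0.675 to 0.731), Pparg at 21.4, 19.7 and 16.1 FPKM, and Plin2, which coats lipid droplets, at 466, 387 and 347. Each of these 5 genes was lowest in the library with Ift88 shRNA. Nr1h3, Apoe, Pparg and Plin2 were chosen after their values were seen.

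Fatty acid synthesis followed the sterol genes. In this group 8 of 9 were higher, 4 by at least 1.2-fold, with a median log2 of 0.18. The desaturase genes Scd2 (8.05, 9.39 and 11.3 FPKM, ratio 1.41 (1.32 to 1.51)) and Fads2 (1.28, 1.94 and 2.18 FPKM, ratio 1.71 (1.36 to 2.12)) and the synthase gene Fasn (6.84, 7.45 and 8.74 FPKM, ratio 1.28 (1.21 to 1.35)) were each lowest in static cells.

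**Figure D3:**
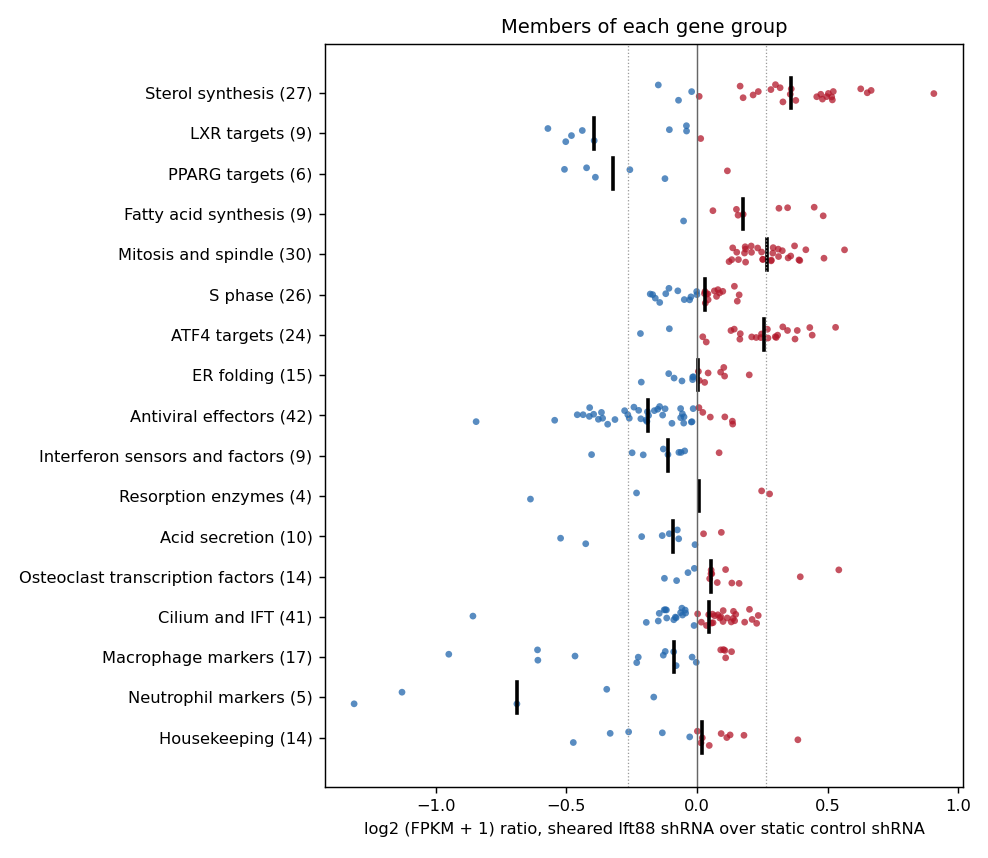
Log2 ratio of (FPKM + 1), sheared Ift88 shRNA over static control, for the members of 17 gene groups, 1 point a gene, with a black bar at each median and dotted lines at 1.2-fold. Sterol synthesis (median 0.36) and mitosis (0.27) sit to the higher side, LXR genes (-0.39) and neutrophil markers (-0.69) to the lower side, and S phase genes (0.029) around 0.

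All 30 measured mitosis and spindle genes were higher, 15 of them by at least 1.2-fold, with log2 values from 0.12 to 0.56 and a median of 0.27. The median was 0.135 for sheared control over static and 0.125 for sheared Ift88 shRNA over sheared control. Ube2c, the ubiquitin-conjugating enzyme of the anaphase-promoting complex, was at 16.9, 22.4 and 25.4 FPKM, with a ratio of 1.51 (1.34 to 1.70). The mitotic kinase Plk1 was at 6.21, 7.55 and 9.09 FPKM, with a ratio of 1.46 (1.29 to 1.66), and the survivin gene Birc5 at 15.8, 19.6 and 21.4 FPKM, with a ratio of 1.36 (1.25 to 1.47). Ccnb1, which encodes cyclin B1, was at 10.2, 11.3 and 13.7 FPKM, with a ratio of 1.34 (1.23 to 1.47). Mki67, a general marker of cycling cells, was at 9.33, 9.43 and 10.7 FPKM, with a ratio of 1.15 (1.10 to 1.21), a smaller ratio than those of the genes before it.

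Genes of DNA replication did not share this direction. Of 26 S phase genes 14 were higher and 12 lower, none by 1.2-fold in either direction, with a median log2 of 0.029. Pcna, the sliding clamp of DNA polymerase, was at 194, 200.2 and 178 FPKM, with a ratio of 0.920 (0.893 to 0.948), and Mcm2, a subunit of the replicative helicase, at 7.22, 7.09 and 6.35 FPKM, with a ratio of 0.880 (0.795 to 0.976). Both intervals lie below 1, while those of Ube2c, Plk1, Birc5 and Ccnb1 lie above it. All 6 measured inhibitors of cyclin-dependent kinases were higher, where 49.8% of all genes were. The differences were mostly small, with 1 past 1.2-fold, a median log2 of 0.092 and a lowest value of 0.030.

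Late cell cycle promoters commonly carry the CHR element, TTTGAA here, bound by the MuvB complexes. Ube2c (chr2:164769679-164769928, plus strand) and Cdc20, an activator of the anaphase-promoting complex chosen for its promoter (chr4:118437344-118437593, minus strand), are shown with the element on either strand in capitals, from the same RefSeq table.
Ube2c: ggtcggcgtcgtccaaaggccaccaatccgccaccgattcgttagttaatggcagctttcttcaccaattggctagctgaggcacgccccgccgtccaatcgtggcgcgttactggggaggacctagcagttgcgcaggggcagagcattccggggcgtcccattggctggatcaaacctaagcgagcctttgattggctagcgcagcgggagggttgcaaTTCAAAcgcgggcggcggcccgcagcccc
Cdc20: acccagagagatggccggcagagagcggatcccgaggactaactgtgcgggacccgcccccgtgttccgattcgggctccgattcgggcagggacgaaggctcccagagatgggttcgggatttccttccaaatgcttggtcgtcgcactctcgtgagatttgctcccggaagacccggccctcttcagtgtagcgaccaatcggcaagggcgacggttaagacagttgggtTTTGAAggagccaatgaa

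TTTGAA was found in 11 of 26 mitosis genes with a promoter (42.3%), in 12.9% of measured genes and in 16.0% of all promoters. The median log2 was 0.28 in mitosis genes with the element and 0.21 in those without. CCAAT was found in 20 of 26 (76.9%), with medians of 0.27 and 0.16.

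Targets of ATF4, the transcription factor of the amino acid and stress response, were higher in 22 of 24, with 12 at least 1.2-fold higher, none at least 1.2-fold lower and a median log2 of 0.26. The median was 0.16 for sheared control over static and 0.055 for sheared Ift88 shRNA over sheared control. Mthfd2, a mitochondrial enzyme of one-carbon metabolism, was at 11.6, 14.7 and 17.3 FPKM, with a ratio of 1.482 (1.35 to 1.63). Phgdh, which begins serine synthesis, was at 3.999, 5.71 and 5.79 FPKM, with a ratio of 1.45 (1.22 to 1.72), and Asns, asparagine synthetase, at 11.8, 14.2 and 16.3 FPKM, with a ratio of 1.38 (1.25 to 1.52). For Phgdh the sheared libraries were nearly equal and the static one was low. Atf4 mRNA was at 113, 122 and 124 FPKM.

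Chaperones and enzymes of endoplasmic reticulum folding stayed near equal, with 8 of 15 higher, 7 lower, none past 1.2-fold and a median log2 of 0.005. Hspa5, the chaperone BiP, was at 809.8, 818 and 834 FPKM, with a ratio of 1.03 (1.02 to 1.04). The motif TTNCATCA, the letters of the element bound by ATF4 with C/EBP partners, was found in 6 of 21 ATF4 target promoters (28.6%) and 2.43% of measured genes, with median log2 values of 0.30 with it and 0.25 without.

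Interferon-stimulated antiviral genes were lower. Of 42 measured effectors, from 45 listed, 36 were lower and 6 higher, 14 were at least 1.2-fold lower against a background of 4.48%, none was at least 1.2-fold higher, and the median log2 was -0.19. Side by side, the median was -0.23 for sheared control over static and 0.052 for sheared Ift88 shRNA over sheared control. Mx1, a GTPase that blocks viral replication, was at 4.94, 2.70 and 2.305 FPKM, with a ratio of 0.467 (0.392 to 0.552). Ifit2, which binds viral RNA with its relatives, was at 8.71, 5.35 and 5.66 FPKM, with a ratio of 0.649 (0.590 to 0.714), Ifit3 at 16.0, 10.7 and 11.4, with a ratio of 0.711 (0.640 to 0.790), and Ifit1 at 10.02, 7.04 and 7.57, with a ratio of 0.756 (0.681 to 0.838). Rsad2, the antiviral enzyme viperin, was at 17.7, 12.3 and 13.5 FPKM, with a ratio of 0.763 (0.716 to 0.814).

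In Ifit1, Ifit2, Ifit3 and Rsad2 the static library was high and the sheared libraries were low and close to each other. The transcription factor gene Irf7 was at 60.1, 47.0 and 45.2 FPKM, with a ratio of 0.752 (0.716 to 0.790). Isg15, a ubiquitin-like modifier, was at 35.2, 29.98 and 34.7 FPKM, with a ratio of 0.985 (0.884 to 1.10). Its interval includes equal levels and the sheared control was its low library. Of the 9 sensors and factors, 8 were lower, 1 by at least 1.2-fold, with a median log2 of -0.11.

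Promoters of 3 antiviral genes are shown because they carry the interferon-stimulated response element, written here as GAAANNGAAA, the site through which interferon signalling acts on such genes. They lie at chr19:34640639-34640888 (plus strand), chr19:34583279-34583528 (plus) and chr12:26456453-26456702 (minus), and capitals mark the element on either strand.
Ifit1: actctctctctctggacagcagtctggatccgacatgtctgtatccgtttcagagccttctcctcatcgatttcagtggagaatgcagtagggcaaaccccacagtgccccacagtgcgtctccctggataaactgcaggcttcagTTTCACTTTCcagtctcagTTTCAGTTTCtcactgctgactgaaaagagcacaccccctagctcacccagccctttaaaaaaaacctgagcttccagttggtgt
Ifit3: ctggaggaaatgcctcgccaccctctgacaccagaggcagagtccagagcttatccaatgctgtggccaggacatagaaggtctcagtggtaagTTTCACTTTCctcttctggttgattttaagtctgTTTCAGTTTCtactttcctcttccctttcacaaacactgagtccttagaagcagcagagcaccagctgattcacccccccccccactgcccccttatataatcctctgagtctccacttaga
Rsad2: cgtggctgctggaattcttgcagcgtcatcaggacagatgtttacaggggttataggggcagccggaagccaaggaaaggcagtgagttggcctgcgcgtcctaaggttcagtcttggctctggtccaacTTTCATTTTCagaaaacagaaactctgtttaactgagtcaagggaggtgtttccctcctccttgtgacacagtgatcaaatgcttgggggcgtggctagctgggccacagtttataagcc

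The element was found in 16 of 30 antiviral effectors with a promoter (53.3%), in 3.25% of measured genes and in 2.98% of all promoters. The median log2 was -0.20 with the element and -0.13 without. Capitals in Ifit1 and Ifit3 mark 2 matches each and in Rsad2 a single one.

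**Figure D4:**
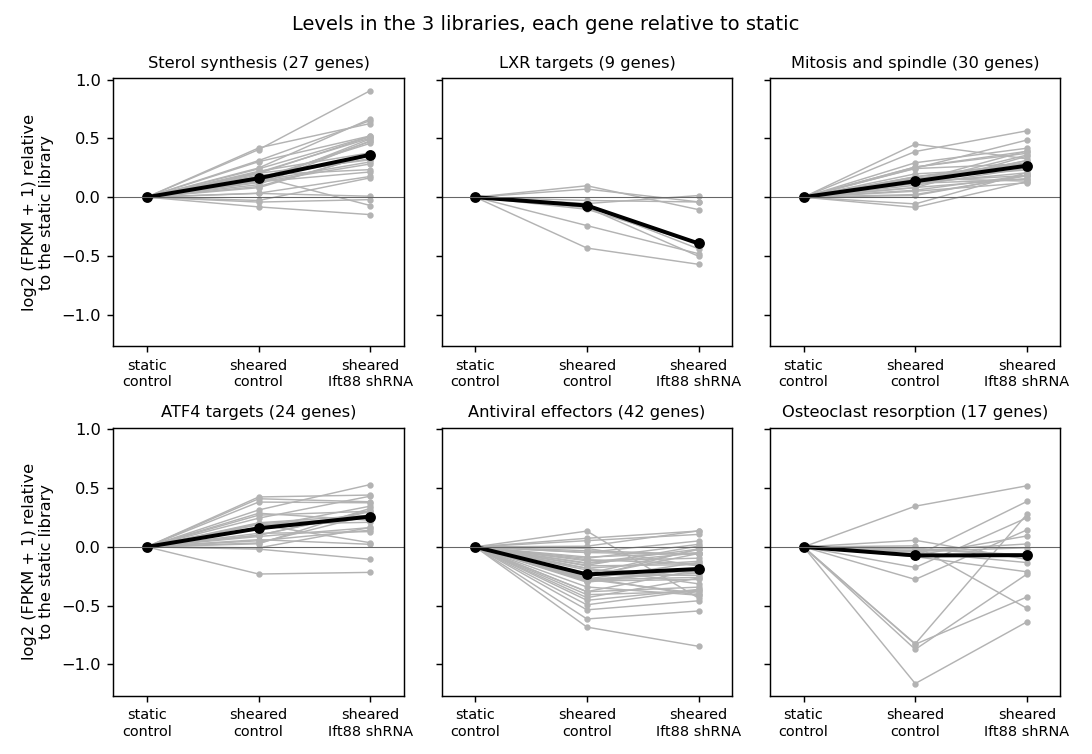
Log2 of (FPKM + 1) relative to the static library for each member (grey lines) and the median (black) in 6 groups, across static control, sheared control and sheared Ift88 shRNA on the x axis. Sterol (median 0.16 then 0.36) and mitosis genes (0.135 then 0.27) stand higher in the sheared control and higher again with Ift88 shRNA, whereas antiviral genes (-0.23 then -0.19) are low in both sheared libraries.

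Resorption genes of osteoclasts had no single direction in this comparison. Of 17 measured members, from 21 listed, 7 were higher and 10 lower, 3 at least 1.2-fold in each direction, with a median log2 of -0.070. Among the enzymes, Ctsk, the collagen-degrading cathepsin K, was at 29.4, 12.6 and 18.5 FPKM, with a ratio of 0.631 (0.578 to 0.687), and Acp5, tartrate-resistant acid phosphatase, at 97.7, 52.9 and 83.0 FPKM, with a ratio of 0.850 (0.812 to 0.890). The gelatinase gene Mmp9 was at 70.3, 39.3 and 85.5 FPKM, with a ratio of 1.22 (1.18 to 1.25). In each of these 3 genes the sheared control was the lowest library. With Ift88 shRNA, Ctsk and Acp5 remained under the static level and Mmp9 stood over it.

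Acid secretion genes were lower in 8 of 10, 2 by at least 1.2-fold, with a median log2 of -0.091. Snx10, a sorting nexin needed for acid vesicle traffic, was at 31.8, 32.0 and 21.8 FPKM, with a ratio of 0.687 (0.645 to 0.730), with close static and sheared control levels and the library with Ift88 shRNA low. Slc9b2, a sodium/proton exchanger, was at 1.75, 0.550 and 1.05 FPKM, with a ratio of 0.598 (0.491 to 0.726), with the sheared control lowest. The proton pump subunit genes were nearer to equal, with Atp6v0d2 at 211, 199 and 182 FPKM and Tcirg1 at 406, 395 and 403. All 3 attachment genes were higher, with a median log2 of 0.39. Itgb3, the beta chain of the vitronectin receptor, was at 5.36, 7.08 and 8.12 FPKM, with a ratio of 1.51 (1.40 to 1.64), and the kinase gene Src at 20.3, 19.1 and 26.8, with a ratio of 1.32 (1.26 to 1.39).

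For fusion of precursors, 5 of 15 genes were higher and 10 lower, with 1 past 1.2-fold, upward, and a median log2 of -0.074. That gene was Dcstamp, a membrane protein required for fusion, at 5.21, 3.67 and 7.27 FPKM, with a ratio of 1.39 (1.19 to 1.63). Its partner Ocstamp did not pass the filter, at 0.743, 0.160 and 0.608 FPKM. In both genes the sheared control library was the lowest.

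RANK signalling genes and transcription factors were higher in 19 of 26, 3 by at least 1.2-fold, with a median log2 of 0.051. Tnfrsf11a, which encodes RANK, was at 8.64, 8.404 and 10.7 FPKM, with a ratio of 1.24 (1.15 to 1.32), and Csf1r, the MCSF receptor, at 248, 251 and 272, with a ratio of 1.10 (1.08 to 1.11). Fos, an AP-1 factor required for osteoclast formation, was at 8.66, 8.09 and 13.1 FPKM, with a ratio of 1.51 (1.36 to 1.68), and Tfec, a relative of Mitf, at 9.92, 11.3 and 13.4, with a ratio of 1.35 (1.204 to 1.51). Nfatc1 was at 16.2, 15.3 and 16.9 FPKM, with a ratio of 1.04 (0.984 to 1.10), and Mitf at 16.6, 15.7 and 16.5 FPKM. Fos was high with Ift88 shRNA and alike in the other libraries, whereas the levels of Nfatc1 and Mitf were close in the 3 libraries.

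Repressors of osteoclast formation were split, with 7 of 16 higher and 9 lower and a median log2 of -0.011. Id2, an inhibitor of helix-loop-helix factors, was at 135, 128 and 107 FPKM, with a ratio of 0.797 (0.765 to 0.831). The cytokine signalling inhibitors went the other way, with Socs3 at 1.02, 1.13 and 1.79 FPKM, with a ratio of 1.75 (1.33 to 2.31) and Socs1 at 1.86, 1.72 and 2.76, with a ratio of 1.482 (1.22 to 1.81). Socs1, Socs3 and Id2 each had close static and sheared control levels, with the library carrying Ift88 shRNA apart.

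Immediate early genes had 17 of 24 higher, 5 by at least 1.2-fold, and 2 lower by at least 1.2-fold, with a median log2 of 0.125. Dusp5 and Dusp1, phosphatases that switch off MAP kinases, were at 0.889, 1.31 and 1.66 and 13.3, 15.1 and 17.4 FPKM, with ratios of 1.87 (1.38 to 2.51) and 1.31 (1.196 to 1.44). Jun was at 71.4, 62.4 and 58.5 FPKM, with a ratio of 0.820 (0.793 to 0.849), and Atf3 at 186, 168 and 151, with a ratio of 0.808 (0.786 to 0.830), so these AP-1 related genes were lower while Fos was higher.

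Mechanosensitive channels and receptors were higher in 20 of 28, 3 by at least 1.2-fold, with a median log2 of 0.079. Panx1, which releases ATP, was at 16.1, 19.2 and 21.3 FPKM, with a ratio of 1.33 (1.27 to 1.39), the channel gene Piezo1 at 41.9, 42.8 and 48.0, with a ratio of 1.15 (1.12 to 1.18), and Tmem63b, an osmosensitive channel, at 9.18, 10.04 and 11.9, with a ratio of 1.29 (1.19 to 1.41). The 3 past 1.2-fold were the integrin gene Itgb3, with levels given above, Panx1 and Tmem63b, at log2 values of 0.519, 0.386 and 0.337. Piezo1, at 0.193, was not among them. None of the 28 was lower by 1.2-fold. Over all genes the shares past this mark were 4.79% upward and 4.48% downward. With so small a share, the absence of such a gene from a list of 28 tells little.

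Cytokines, chemokines and their receptors were evenly split, 13 higher and 13 lower, with 4 and 5 past 1.2-fold. Ccr1, a receptor on osteoclast precursors, was at 10.7, 9.90 and 16.3 FPKM, with a ratio of 1.52 (1.40 to 1.65), and Csf1, which encodes MCSF itself, at 11.4, 11.4 and 15.7, with a ratio of 1.37 (1.27 to 1.479). On the lower side were the ligand genes Ccl4 at 64.8, 57.1 and 44.6 FPKM, with a ratio of 0.688 (0.625 to 0.757) and Ccl6 at 124, 96.8 and 91.8, with a ratio of 0.741 (0.711 to 0.772). Cxcl2, a neutrophil attractant, was at 2.53, 1.13 and 3.40 FPKM, lowest in the sheared control, and its interval of 0.997 to 1.81 includes equal levels.

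Matrix genes and proteases were higher in 14 of 22, with 5 higher and 3 lower by at least 1.2-fold. After Tgfbi, Timp1, an inhibitor of metalloproteinases, was at 4.20, 4.74 and 7.07 FPKM, with a ratio of 1.68 (1.31 to 2.18). Thbs1, the matrix glycoprotein thrombospondin, was at 9.68, 9.72 and 6.68 FPKM, with a ratio of 0.690 (0.643 to 0.741), and the protease gene Adamts1 at 2.495, 2.24 and 1.72, with a ratio of 0.690 (0.591 to 0.806). Grem1, a BMP antagonist, was at 0.926, 0.972 and 1.85 FPKM, with a ratio of 1.999 (1.61 to 2.497), one of 2 genes at least 1.2-fold higher among 19 of the TGF-beta and BMP pathway, where 8 were higher and 11 lower.

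NRF2 targets and metallothioneins had 20 of 29 higher and 9 lower, 5 and 1 past 1.2-fold, with a median log2 of 0.095. Nqo1, a quinone reductase, was at 2.85, 4.28 and 4.89 FPKM, with a ratio of 1.72 (1.39 to 2.14), with the static library low. The metallothionein genes Mt2 and Mt1, which encode zinc-binding proteins, were at 87.4, 86.0 and 118 and 319, 342 and 406 FPKM, with ratios of 1.35 (1.24 to 1.47) and 1.27 (1.22 to 1.33). Mt3 was at 5.63, 1.99 and 5.57 FPKM and thus lowest in the sheared control.

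Cilium and intraflagellar transport genes other than Ift88 were near equal. Of 41 measured genes 24 were higher and 17 lower, and on the (FPKM + 1) scale Ift88 was the single one past 1.2-fold, with a median log2 of 0.045. Kif3a, a kinesin-2 motor subunit, was at 9.82, 8.92 and 9.23 FPKM, Pkd2, a ciliary channel, at 5.11, 4.67 and 4.51, and Dync2li1, a subunit of the retrograde dynein, at 2.56, 1.86 and 3.12. The ratio of FPKM without the added 1 was 1.22 (0.932 to 1.59) for Dync2li1, which is past 1.2-fold with an interval that reaches below it. The Hedgehog receptor gene Ptch1 was at 1.40, 1.52 and 1.23 FPKM, and Smo, at 0.685, 0.634 and 0.417, did not pass the filter.

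General expression groups put these differences on a scale. Cytosolic ribosomal protein genes had 30 of 53 higher with a median log2 of 0.017. That median was 0.12 for sheared control over static and -0.105 for sheared Ift88 shRNA over sheared control. The 35 genes of oxidative phosphorylation had 1 past 1.2-fold. Of 14 housekeeping genes 9 were higher and 5 lower, 1 at least 1.2-fold higher and 2 lower, with log2 values from -0.47 to 0.39. The glycolytic enzyme gene Gapdh was at 937, 1111 and 1224 FPKM, with a ratio of 1.31 (1.29 to 1.32), the transferrin receptor gene Tfrc at 67.8, 56.2 and 48.5, with a ratio of 0.716 (0.696 to 0.737), and Tbp, the TATA-binding protein, at 8.81, 7.34 and 6.79, with a ratio of 0.771 (0.735 to 0.809). Actb, beta-actin, was at 1126, 1132 and 1218 FPKM and Ppia, cyclophilin A, at 2377, 2443 and 2455. Differences as large as that of Ccnb1 thus also occurred among genes often used as references.

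How far the group medians hold between cultures was not tested, since each group had 1 library.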

How the data were processed

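The deposited table held FPKM, which the authors computed for 24067 genes in 3 libraries, with no raw counts used here. The tools named in the submitters' processing notes are Cufflinks 2.2.1, TopHat2 2.0.13, Trimmomatic 0.32 and bcl2fastq 1.8.4, on build mm10. Their settings, and whether strand was used, were not given in the sources used here. Polyadenylated RNA libraries were made from TRIzol extracts, per the labels' protocols. FPKM is a share of each library, and Cufflinks divides reads between near copies by estimation.

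The 10358 genes whose FPKM averaged 1 or more over the 3 libraries entered, with a pseudocount of 1 on the log2 scale, which understates differences of low genes. No test was run. The steps between low FPKM values gave an estimate of depth. In all, 66.1%, 65.4% and 65.0% of these values were whole numbers of fragments within 0.1, so fragment numbers are approximate and no count model was used. Intervals cover counting error only and are given for genes with transcripts of at least 500 bases. The script was tested on simulated data. Near copies were sought with blastn 2.17.0 only for the ranked coding genes furthest in each direction. The other named genes were not searched, so whether reads were divided between near copies was not tested for them. Coordinates come from RefSeq (GRCm38, 23987 gene IDs matched). Python 3.11.15, numpy 2.4.6, pandas 2.3.3 and scipy 1.17.1 were used.

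The comparison, the 33 gene lists (849 symbols, 5 without a match) and the rules were chosen with earlier results of these data known. Genes named are Ift88, the 15 furthest in each direction among coding genes with a transcript of at least 500 bases or of unknown length, key members of each list, and up to 3 further members of a list in each direction at 1.2-fold or more; some of these are not reported here. Alternatives were pseudocounts of 0.1 and 5, a mean FPKM of at least 5, no filter, median-ratio and equal-total scaling, long coding genes alone, and centring by length and GC content.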

Additional observations from a re-analysis of the deposited data

How the results depend on the processing

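No paired analysis was possible because each group has 1 library, and for the same reason no replicate could be left out. With a pseudocount of 0.1 the genes at least 1.5-fold apart numbered 88 higher and 84 lower and the genes at least 2-fold higher 15; with a pseudocount of 5 they numbered 10, 19 and 4. By construction a larger pseudocount shrinks the ratios of low genes. At a mean FPKM of at least 5, which leaves fewer genes, 16 passed 1.5-fold upward, and 2-fold was passed by 3 upward and 8 downward. Among long coding genes alone 27 were at least 1.5-fold lower, and at 2-fold 5 were higher and 4 lower. The median of the YAP and TAZ targets, 0.071 on the log2 scale, reversed to -0.0103 without the expression filter, which lets in more members. The medians of the cytokine and chemokine genes, the repressors and the ribosomal protein genes, all within 0.05 of 0, also changed sign. Among list medians 218 values moved by less than 0.05, and 11 more moved further without changing sign. Of the ratios of named genes 1317 values moved by less than the half-width of their counting interval (0.1 where there was none) and 72 moved further. Those of 7 named genes changed sign, all within 0.042 of 0 as reported, and none that was 1.2-fold or more did. Over all alternatives the median stayed within 0.29 to 0.41 for sterol synthesis, 0.17 to 0.32 for mitosis, -0.155 to -0.113 for all interferon-stimulated genes, -0.74 to -0.26 for neutrophil markers, -0.076 to -0.037 for resorption and -0.091 to -0.075 for macrophage markers. Medians were rerun for whole lists only. Those of parts of a list, such as the LXR, PPARG and ATF4 targets, were not put through the alternatives. Scaling to equal total FPKM gave 561 genes at least 1.2-fold higher and 408 lower, against 496 and 464. Across 10268 genes the log2 ratio had a Spearman correlation of 0.31 with GC content (genes are not independent replicates). Centring by length and GC content, chosen after seeing the data, gave medians of 0.41 for sterol synthesis and 0.28 for mitosis.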
